A study of Mus musculus with 2 samples.

Results

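Otor, Coch, Crym and Car3 are genes known from the fibrocytes of the cochlear lateral wall. They were taken by symbol from a table of genes that differ between sorted cells of that wall, where 4 of the 4 names were found among 4197 genes. Fibrocytes fill the spiral ligament, the connective tissue behind the stria vascularis. They hold the ligament's matrix and carry potassium through gap junctions, pumps and cotransporters back toward the stria, whose secretion of endolymph hair cells depend on. Otor encodes otoraplin, a small secreted protein of the MIA family, and Coch encodes cochlin, a matrix protein mutated in an inherited human hearing loss. Crym encodes mu-crystallin, a cytosolic protein that binds thyroid hormone, and Car3 encodes a cytosolic carbonic anhydrase that is otherwise abundant in muscle and fat.

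The cells came from the lateral wall of mice at postnatal day 0 that carried Cre under the Wnt1 promoter, active in the early neural crest, and a Cre-dependent fluorescent reporter. The GFP positive fraction, labelled wnt1CRE::Ai3, was set against the GFP negative fraction, labelled wnt1CRE::Ai4, and the 2 labels thus differ in the reporter. The protocol names an EYFP reporter for both fractions. GFP positive cells can be any Cre-marked descendants of the neural crest, pigment cells and glia included, and GFP negative cells are all others that passed the sort. Fibrocytes were not sorted as such.

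The labels give 1 sample per fraction, and the spread among GFP negative samples is not measured. The values are normalised read counts. For GFP negative cells they come from 1 library, and for GFP positive cells the table gives the authors' mean, whose steps are those of 2 libraries, called A and B here and named in no label. The heading of the mean carries the prefix of the GFP negative sample's title and not that of the GFP positive sample's, so whether that sample is 1 of the 2 libraries is not known. Listed genes held 17120511 reads in library A, 16584559 in library B and 12114107 in the GFP negative library. The authors' deposited table ends at an adjusted p of 0.00986 and at a 2-fold difference, and genes outside these limits have no row and are not analysed here. Ratios are GFP positive over GFP negative, log2 ratios use log2(value + 1), and 95% intervals are exact binomial ones for counting error only. Pigment and intermediate cell genes describe the sort and do not test it, as the lists were chosen with earlier results known. Of these, 12 of 12 names were listed and higher in GFP positive cells, with a summed value of 2625232 against 7156 in GFP negative cells. Dct alone held 1229761 of the GFP positive sum. Of 10 Schwann cell and glial names 8 were listed, all higher, at 151042 against 5564. Among all 4197 listed genes, 1831 were higher.

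Among listed genes, the 4 fibrocyte genes held some of the largest read counts of GFP negative cells. They were 15.0-fold to 22.6-fold lower in GFP positive cells. By normalised count, which also grows with transcript length, Otor ranked 2 among the 4197 genes in the GFP negative library, Car3 ranked 3, Crym 14 and Coch 22. In the GFP positive mean their ranks were 197 for Otor, 200 for Car3, 791 for Crym and 1127 for Coch. Together they made up 0.226% of the listed values of GFP positive cells and 5.64% of those of GFP negative cells. All 4 were 4-fold or more lower, as were 36.9% of all listed genes, and 3 of 4 were 16-fold or more lower, against 3.0% of listed genes. edgeR's quasi-likelihood test on reads recovered from the table called all 4 lower, as it did 56.4% of listed genes, and these are all the genes the table gives as lower. That test compares these 3 libraries, on which the listed genes were also selected, and not the conditions. The members were picked with earlier results on this table known, so these shares describe them and test nothing. Lower amounts can stand for fewer fibrocytes in the GFP positive fraction or for less of these RNAs per cell, which a bulk library cannot tell apart.

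Otor, the otoraplin gene, stood at 17564 in library A and 13655 in library B, a mean of 15609 in GFP positive cells, against 349389.8 in GFP negative cells. That mean was 22.4-fold lower (22.1 to 22.6), a log2 ratio of -4.48. Coch, the cochlin gene, stood at 2513 and 1964 in libraries A and B, a mean of 2239, against 50164 in GFP negative cells. Coch was likewise 22.4-fold lower (21.7 to 23.1), a log2 ratio of -4.49. Neither GFP positive library came near the GFP negative value of its gene.

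Crym, the mu-crystallin gene, stood at 4033 in library A and 3517 in library B, a mean of 3775 in GFP positive cells, against 85132 in GFP negative cells. It was 22.6-fold lower (22.0 to 23.1), a log2 ratio of -4.49. Car3, the carbonic anhydrase gene, stood at 17574 and 13036 in libraries A and B, a mean of 15305, against 229189.6 in GFP negative cells. Car3 was 15.0-fold lower (14.8 to 15.2), a log2 ratio of -3.90, and so was the least reduced of the 4. The authors' deposited table lists an adjusted p of 0 for each of these genes, from a test that is not given in the sources used here. Both GFP positive libraries lay below the GFP negative value for all 4 genes, and in each of the 4 library A was the higher of the pair.

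**Figure D1:**
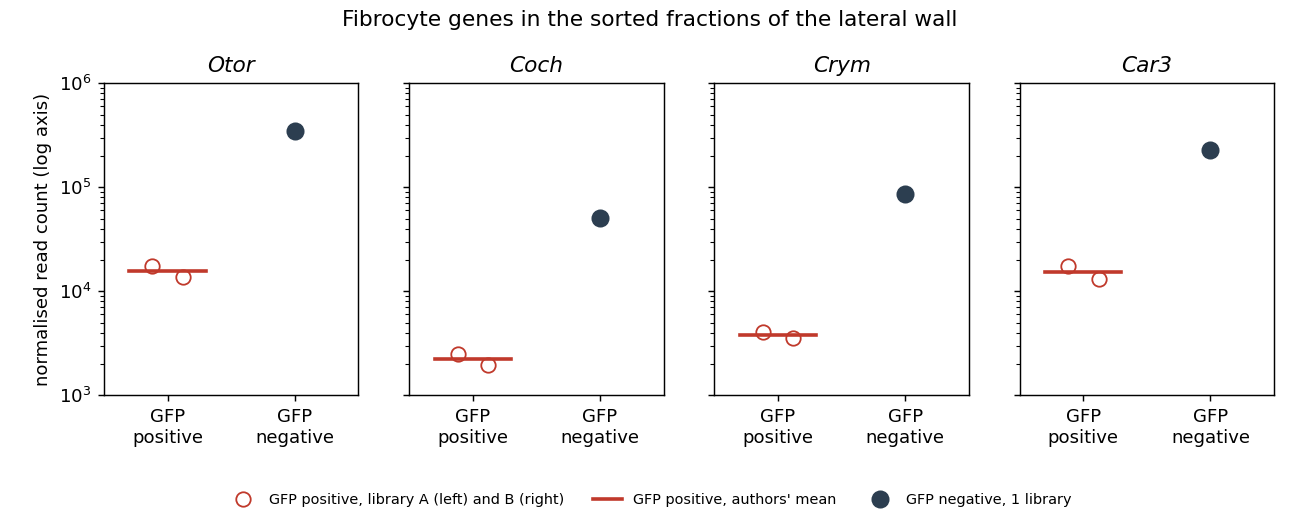
Normalised read counts (log axis) of Otor, Coch, Crym and Car3, with libraries A and B of GFP positive cells as open circles, the authors' mean as a line and the 1 GFP negative library as a filled circle. The GFP positive values lie between 1964 and 17574 and the GFP negative values between 50164 and 349389.8, with no overlap within a gene.

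Levels of different genes can be set side by side only per length. Per kilobase of exon in the GENCODE M21 annotation, which is not the one used by the authors, Otor stood at 16448 in GFP positive and 368166 in GFP negative cells, since its exons span only 949 bases. Car3 followed with 5342 per kilobase in GFP positive and 79996 in GFP negative cells. Crym had 1113 in GFP positive and 25105 in GFP negative cells, and Coch had 747 in GFP positive and 16732 in GFP negative cells. The order Otor, Car3, Crym, Coch was the same in both fractions. No annotated gene of GENCODE M21 overlaps any of the 4.

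The region before the transcript start differs in base composition between Otor and Coch, the 2 of these genes with an entry in the RefSeq promoter table (build GRCm38.p6, 250 bases before to 50 after the start, gene strand). They are shown as the members with an entry; Crym and Car3 have none there. The region of Otor is chr2:143078143-143078442 and that of Coch is chr12:51593091-51593390, both on the plus strand. Capitals mark 3 motifs, each searched on both strands. The motif called the TATA box here has the letters TATAAA, that of the CCAAT box is its name, and that of the GC box has the letters GGGCGG. On the other strand each appears as its reverse complement.
Otor: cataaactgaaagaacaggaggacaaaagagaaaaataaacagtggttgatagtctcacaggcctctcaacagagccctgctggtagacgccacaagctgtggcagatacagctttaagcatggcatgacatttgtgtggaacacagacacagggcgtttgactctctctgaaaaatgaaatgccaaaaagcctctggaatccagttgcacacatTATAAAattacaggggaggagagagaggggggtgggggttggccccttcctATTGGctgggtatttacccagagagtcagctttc
Coch: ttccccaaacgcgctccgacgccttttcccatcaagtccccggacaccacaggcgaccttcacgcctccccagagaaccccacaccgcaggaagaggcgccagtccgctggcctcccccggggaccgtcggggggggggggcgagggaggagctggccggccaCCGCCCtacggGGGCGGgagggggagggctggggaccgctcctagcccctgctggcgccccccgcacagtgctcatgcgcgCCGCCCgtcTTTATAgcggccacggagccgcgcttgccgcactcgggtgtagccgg

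The Otor region had 47.3% G and C bases and 2 CpG dinucleotides, and the Coch region 73.7% and 32, while the median of 32851 promoters of the same length was 52.7% and 7. A TATA box began 35 bases before the start of Otor, and a CCAAT box on the other strand began at position 17, counted from 1 at the start. Coch had GC boxes that began 87, 76 and 6 bases before the start, and a TATA box on the other strand at position 4. None of these motifs overlapped another. Of all promoters in the table, 13.6% hold this TATA box, 37.4% the CCAAT box and 35.7% the GC box on either strand. The octamer ATTTGCAT, which POU factors bind, was in neither region and in 1.74% of all promoters. These matches describe letters in the window and show no binding.

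Otor, Coch and Crym kept nearly the same share of their GFP negative value in the GFP positive mean, although their GFP negative read counts spanned a 6.96-fold range. The GFP positive mean was 4.47% of the GFP negative value for Otor, 4.46% for Coch and 4.43% for Crym. Taken without a pseudocount, the log2 ratio of Otor was above that of Coch by 0.0016 (-0.045 to 0.048) and above that of Crym by 0.011 (-0.027 to 0.048). Coch lay above Crym by 0.0092 (-0.046 to 0.064). No difference larger than these counting intervals was detectable between the 3 genes in the mean. Car3 kept more, 6.68% (6.60 to 6.76). On the same scale, the log2 ratio of Otor minus that of Car3 was -0.58 (-0.60 to -0.56), that of Coch minus Car3 was -0.58 (-0.63 to -0.53), and that of Crym minus Car3 was -0.59 (-0.63 to -0.55). These intervals do not hold 0, but they cover counting error alone and not the spread between libraries.

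Within each of the 2 GFP positive libraries, Otor and Coch matched, whereas Crym differed from Otor beyond counting error. In library A, Otor stood at 5.03% and Coch at 5.01% of their GFP negative values, and in library B both stood lower, at 3.91% and 3.92%. The normalised count of Otor was thus 6.99 times that of Coch in library A, 6.95 times in library B and 6.96 times in GFP negative cells. Crym stood at 4.74% in library A and 4.13% in library B. Again without a pseudocount, the log2 ratio of Otor was above that of Crym by 0.086 (0.037 to 0.135) in library A and below it in library B, with a difference of -0.080 (-0.135 to -0.025). The near-equal ratio of Otor and Crym in the authors' mean therefore averages differences of opposite sign. Coch lay above Crym by 0.081 (0.009 to 0.152) in library A. In library B that difference was -0.077 (-0.160 to 0.005), within counting error. Car3 stood at 7.67% in library A and 5.69% in library B, above the other 3 genes in each library.

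Among lower genes with large GFP negative counts, Crym, Coch and Otor lay near the low end. Of 184 lower genes whose GFP negative value reached 10000, only the hemoglobin genes Hba-a1, Hbb-bs and Hba-a2 kept a smaller share. Those 3 genes, whose reads may be split uncertainly between near-identical copies, stood at 1.52% to 1.65% of their GFP negative values. Crym, Coch and Otor took places 4, 5 and 6, and Car3 place 24. Ranked by log2 ratio over all 4197 listed genes, lowest first, Crym, Coch and Otor took places 38, 39 and 40, and Car3 place 163. The 184 genes were chosen by the GFP negative value from which the share is also taken, so these places test nothing. The median share over the 184 genes was 15.3%, and 131 of them kept 10% or more. Between 4% and 5% lay 7 genes, which were Crym, Coch, Otor, Fgfr4 (4.63%), the cartilage collagen gene Col2a1 (4.76%), the glutamate transporter gene Slc1a2 (4.86%) and Col25a1 (4.95%). Fgfr4, Slc1a2 and Col25a1 were named after their values were seen.

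**Figure D2:**
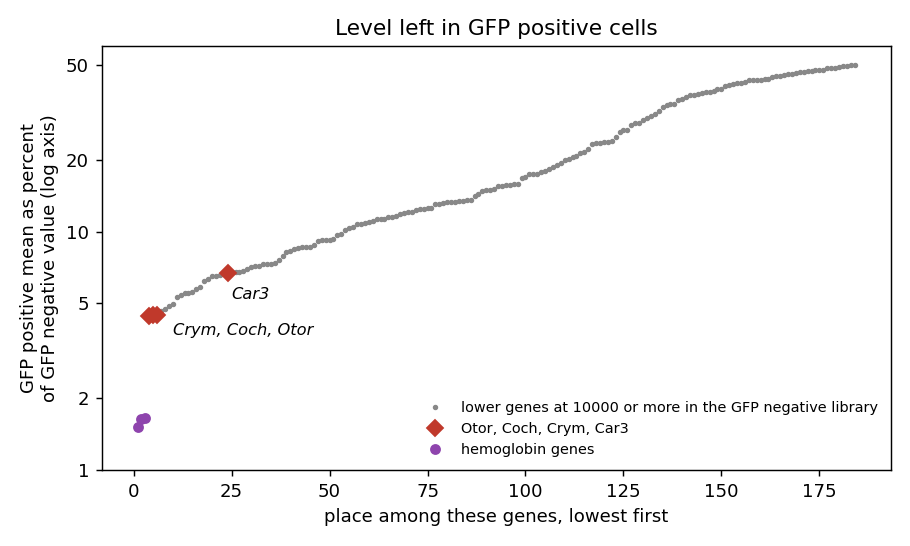
The GFP positive mean as a percent of the GFP negative value (log axis) for the 184 lower genes whose GFP negative value reached 10000, ordered from the lowest. Crym, Coch and Otor lie together at 4.43% to 4.47%, just above the 3 hemoglobin genes, and Car3 lies at 6.68%.

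Other fibrocyte and otic mesenchyme genes were lower as well, over a wide range. Of a list of 24 names 17 were listed, all lower in GFP positive cells, and 13 passed 4-fold, which 36.9% of all listed genes did; 56.4% of all listed genes were lower. Their median log2 ratio was -3.22, against -1.34 over all listed genes. Without the 4 members, 9 of 13 were 4-fold or more lower, the median was -2.74 and the range ran from -4.12 to -1.38. Igfbp2, which encodes a binding protein of insulin-like growth factors, had the lowest ratio of these 13, at 2520 in GFP positive and 43879 in GFP negative cells. Tbx18 and Pou3f4, transcription factor genes of the otic mesenchyme that the spiral ligament needs, had log2 ratios of -3.78 and -3.72. The collagen genes Col1a2, Col3a1 and Col5a1, made by connective tissue cells in general, had -2.74, -1.90 and -1.38. The 7 names without a row were Aldh1a2, Col1a1, Cyp1b1, Fbln1, Postn, Slc4a10 and Vim.

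**Figure D3:**
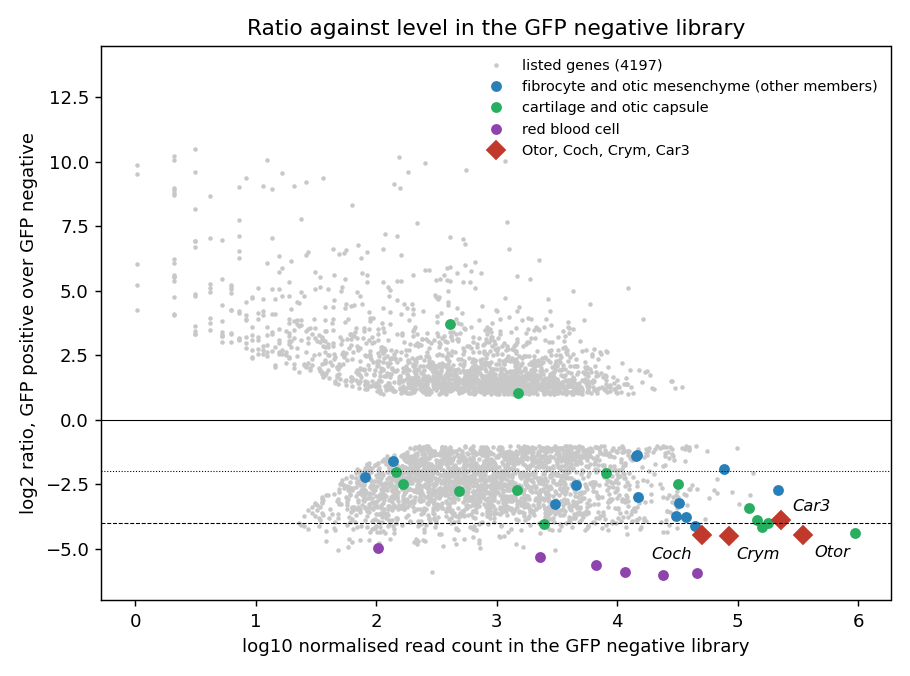
The log2 ratio of GFP positive over GFP negative cells against the log10 GFP negative value (a normalised read count) for 4197 listed genes, with the dotted line at 4-fold and the dashed line at 16-fold lower; the empty band around 0 is the limit of the authors' table. Otor, Coch and Crym lie below the dashed line at the high end of the read counts, beside Col2a1, and Car3 lies just above it.

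The genes most like each member were sought by distance over the 2 columns, on log2(value + 1) of the GFP positive mean and of the GFP negative value. For Otor these were Car3, at a distance of 0.61, and the collagen genes Col11a2 at 1.10 and Col1a2 at 1.26. For Car3 they were Col11a2 at 0.60, Otor at 0.61 and Fstl1, a secreted follistatin-like protein gene, at 0.86. Coch was nearest to Igfbp2 at 0.26, Tbx18 at 0.51 and Aqp1, a water channel gene, at 0.59. Crym was nearest to Col27a1 at 0.68, to the imprinted non-coding gene H19 at 1.05 and to Coch at 1.07. With only 2 columns, likeness means a similar read count in each fraction and no more.

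Cartilage transcripts moved with the fibrocyte genes. Otor is also known from cartilage, and the otic capsule lies against the ligament. Of 17 cartilage names 14 were listed, 12 of them lower, each past 4-fold, against 36.9% of all listed genes, and 2 higher. The median log2 ratio was -2.75. Their summed value was 102011 in GFP positive cells and 1585074 in GFP negative cells. Col2a1, the main collagen of cartilage, stood at 44422 in GFP positive and 933668 in GFP negative cells, a log2 ratio of -4.39 close to that of Otor. Col9a1, Col11a2, Col9a2, Col9a3 and Col11a1, which build the same fibrils, had -4.17, -4.01, -3.88, -3.44 and -2.50. The higher genes were the Sox family factors Sox6, with 3.70, and Sox5, with 1.04. The part of cartilage cells in the values of Otor was not tested.

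Few genes of muscle and fat, the other known sources of Car3 RNA, were listed. A gene without a row did not pass the limits of the authors' table, so its level in either fraction is not known. Of 15 skeletal muscle names 4 were listed, with a summed value of 1007 in GFP positive and 1534 in GFP negative cells. Des, the muscle intermediate filament gene, had a log2 ratio of -3.96, Casq1 -3.03 and Tnnt3 -2.89, whereas Atp2a1, a calcium pump gene, was higher with 3.89. Of 10 adipocyte names Car3 itself was the only listed one, so fat cells have no other value here. Over all listed genes, 56.4% were lower. Of 11 red blood cell names 6 were listed, all lower, with a summed value of 1500.1 in GFP positive and 90382 in GFP negative cells. Of 12 endothelial and pericyte names, Acta2, Cdh5, Kdr and Pecam1 had no row. The 8 listed ones were lower for 6, at 12842 in GFP positive and 44987 in GFP negative cells in sum. The lower ones ran from a log2 ratio of -2.02 for Tek to -4.06 for Emcn, with Rgs5 at -3.81 and Pdgfrb at -3.88. The 2 higher ones were Cspg4, with 2.69, and Myh11, with 2.46. Cspg4 held 9007 of the GFP positive and 1392 of the GFP negative sum. The part of these cell types in the fibrocyte values was not tested.

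The family of Otor had a further listed member, Mia, a secreted protein gene known from cartilage and melanoma cells. Mia stood at 545 in GFP positive and 2920.4 in GFP negative cells, 5.36-fold lower (5.0 to 5.74). Mia2 and Mia3 were not listed. The matrix proteins that share the LCCL or the von Willebrand A domain with cochlin were all lower where listed, 5 of 13 names, and each passed 4-fold, against 36.9% of all listed genes. Their median log2 ratio, Coch included, was -3.20. Vit, which encodes vitrin with both kinds of domain, stood at 244 in GFP positive and 2252 in GFP negative cells. Crispld1, a secreted LCCL protein gene, had a log2 ratio of -3.84 and Crispld2 had -2.67. Matn1, a matrilin gene of cartilage, had -2.74.

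Genes that handle thyroid hormone went both ways around Crym. Of 19 names 9 were listed, 4 lower and 5 higher, of which 4 each passed 4-fold, with a median log2 ratio of 1.60. Over all listed genes, 36.9% were 4-fold or more lower and 18.1% were 4-fold or more higher. On the lower side, Slco1c1, a thyroxine transporter gene, stood at 45.0 in GFP positive and 1050.4 in GFP negative cells. Its log2 ratio of -4.51 lay next to the -4.49 of Crym but rested on 48 and 45 reads in libraries A and B. Slco1c1 was thus 23.3-fold lower with a wide interval (18.8 to 29.2). Thrb, a thyroid hormone receptor gene needed for hearing, had -3.43 with 282 in GFP positive and 3047 in GFP negative cells. Dio2, whose enzyme makes the active hormone, had -3.30, with 69.4 in GFP positive and 693 in GFP negative cells.

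On the higher side stood Slc7a5, an amino acid transporter gene whose protein also carries thyroid hormone, at 38067 in GFP positive and 2547 in GFP negative cells. Slc16a10, whose protein transports aromatic amino acids and thyroid hormone, was 5.28-fold higher (4.35 to 6.47). Ttr, which encodes the carrier transthyretin, had a log2 ratio of 3.75, but only 41 reads in the GFP negative library. Klf9, a gene that responds to thyroid hormone in other tissues, had 2.21, and the receptor coactivator gene Ncoa1 had 1.60. The receptor gene Thra was not listed.

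Carbonic anhydrases went both ways as well, with 2 lower and 4 higher among 6 listed of 16 names. Their median log2 ratio was 2.27. Over all listed genes, 56.4% were lower and the median was -1.34. Car1, a red cell enzyme gene and the coding gene before Car3 in its chromosomal cluster, was the other lower one, with 18 reads over both GFP positive libraries and 94 in the GFP negative library. Its ratio was 0.0905 (0.051 to 0.151). Car2, the next gene of that cluster, was not listed. Car14, which encodes a membrane-bound enzyme, stood at 22934 in GFP positive and 6877 in GFP negative cells. Car8, which encodes a related protein without catalytic activity, was 232-fold higher (155 to 366). Car6, a secreted enzyme gene, had a ratio of 748 (207 to 6175) that rested on 2 GFP negative reads, and Car5b, a mitochondrial enzyme gene, was 6.99-fold higher (5.76 to 8.55).

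**Figure D4:**
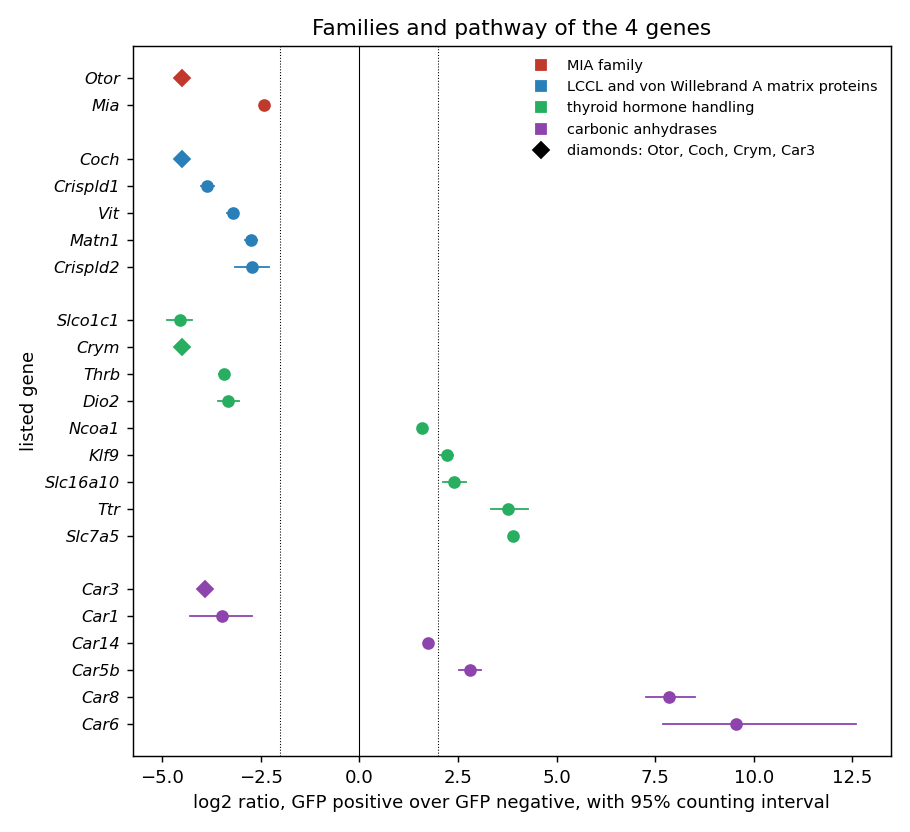
The log2 ratio of GFP positive over GFP negative cells, here with no pseudocount, and its 95% counting interval for the listed genes of the MIA, LCCL and von Willebrand A, thyroid hormone and carbonic anhydrase lists, with diamonds for Otor, Coch, Crym and Car3 and dotted lines at 4-fold. All listed genes of the first 2 lists lie left of 0, while the last 2 lists spread to both sides.

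Ion transport and gap junction genes known from fibrocytes went both ways, much as all listed genes did. Of 18 names 7 were listed, 4 lower and 3 higher, with a median log2 ratio of -1.59. Over all listed genes, 56.4% were lower and the median log2 ratio was -1.34. Aqp1 stood at 2483 in GFP positive and 33808 in GFP negative cells, a log2 ratio of -3.77. The higher genes were Atp1b1, a sodium pump subunit gene, with 1.94, and the connexin genes Gjb2, with 2.48, and Gjb6, at 20240.1 in GFP positive and 1265 in GFP negative cells. The other lower genes were Kcnk2, with -2.97, Slc4a4, with -1.93, and Slc4a11, with -1.59. The 3 higher genes are also known from cells of the stria. The part of any cell type in the values of these 7 genes was not tested.

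Some fibrocyte genes were higher in library A and others in library B, as were the abundant lower genes in general. Otor was 1.29 times as high in library A as in library B (1.26 to 1.32), Coch 1.28 times (1.21 to 1.36), Crym 1.15 times (1.10 to 1.20) and Car3 1.35 times (1.32 to 1.38). Tbx18 and Pou3f4 were higher in library A too, 1.24 times (1.18 to 1.31) and 1.13 times (1.07 to 1.20). Lum, a proteoglycan gene of connective tissue, was higher in library A as well, 1.32 times (1.27 to 1.37). Other connective tissue genes of the list, chosen here after their values were seen, were lower in library A, with 0.717 times for Col1a2 (0.706 to 0.728), 0.640 times for Col3a1 (0.628 to 0.653), 0.684 times for Pdgfra (0.640 to 0.730) and 0.549 times for Prrx1 (0.495 to 0.608). Of the 17 listed fibrocyte and mesenchyme genes, 8 were higher in library A and 9 in library B. Their interval lay above 1 for 7, below 1 for 7 and held 1 for 3. Of 14 cartilage genes 8 lay above 1 and 2 below. Of 8 endothelial and pericyte genes 1 lay above 1 and 7 below. Of 12 pigment genes 1 lay above and 10 below. The median log2 difference between library A and library B over the 184 lower genes at 10000 or more in GFP negative cells was -0.02. Of these 184 genes, 85 were higher in library A. Intervals were not counted over all listed genes.

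**Figure D5:**
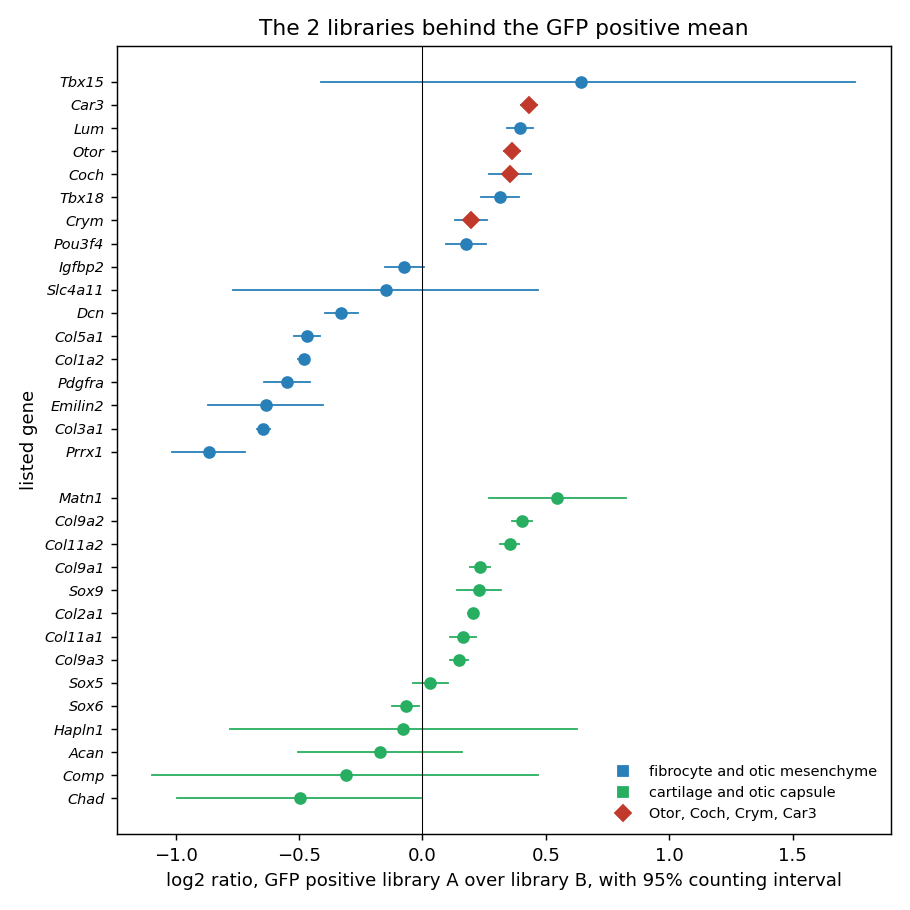
The log2 ratio of GFP positive library A over library B with its 95% counting interval for the listed fibrocyte and otic mesenchyme genes and cartilage genes, with red diamonds for Otor, Coch, Crym and Car3. The 4 diamonds lie right of 0, between 0.20 and 0.43. Lum, Tbx18 and Pou3f4 also lie right of 0, while Col1a2, Col3a1, Col5a1, Pdgfra, Dcn, Emilin2 and Prrx1 lie left of it. The intervals of the other fibrocyte and otic mesenchyme genes hold 0.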

How the data were processed

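RNA of sorted cells was made into Illumina TruSeq libraries, per the labels' protocols, and the submitters' processing notes name STAR for alignment and the build mm9. How reads were counted, normalised and tested is not given in the sources used here. What was deposited is a normalised signal (read count divided by a size factor) for GFP negative cells and a mean by the authors for GFP positive ones, with the authors' ratio (fold), log2 ratio, p-value and adjusted p-value per the file headers. Whole reads were recovered for 100% of GFP negative values (tolerance 1e-06 reads, size factor 0.958). For 100% of the means exactly 1 pair of whole numbers fitted (relative tolerance 1e-13, size factors 1.07 and 0.991). These reads gave the values of libraries A and B and the intervals.

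The members and gene lists were chosen with earlier results of these data known. Of 4197 gene IDs, 4064 were matched to GENCODE M21 names. A gene counted past 4-fold on log2(value + 1) with at least 5 in the higher group. The normalised values were used as deposited. Some genes of the lists are not reported here and were left out of the counts. Named were the 4 members, the other listed genes of their families and of the thyroid list, the most abundant and extreme members of other lists where a result turned on them, and the 3 nearest genes of each member. Other named members of the lists were picked after their values were seen. Pairs of members were compared by exact conditional odds ratio intervals. Python 3.11.15, scipy 1.17.1, R 4.3.3 and edgeR 4.0.16 were used, and edgeR's quasi-likelihood test, tried on simulated data first, was an alternative only. As labels give 1 sample per group, intervals measure counting error, and replicate error is unknown.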

Additional observations from a re-analysis of the deposited data

How the results depend on the processing

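The log2 ratios of Otor, Coch, Crym and Car3 stayed negative under each of the 28 alternatives run on them, and 4 of 4 genes stayed 4-fold or more lower under the pseudocounts, scalings and single libraries tried. Scaling both columns to the same listed total, which shifts log2 ratios by -0.37, gave -4.85 for Otor, -4.85 for Coch, -4.86 for Crym and -4.27 for Car3. Centring on the median of listed genes with at least 5 in both columns, -1.31 (-1.34 over all listed genes), gave -3.17, -3.17, -3.18 and -2.59 in the same order, and -1.90 for the median of the fibrocyte list. It also changed the count of listed genes past 4-fold to 466 lower and 1831 higher, against 1549 lower and 761 higher as reported. The 1831 are all the higher genes, since no listed gene lay within 2-fold and the shift moved each of them past 4-fold. That count therefore follows from the limit of the authors' table. With library A or B alone the log2 ratio ranged from -4.68 to -4.31 for Otor, -4.67 to -4.32 for Coch, -4.60 to -4.40 for Crym and -4.14 to -3.70 for Car3. Pseudocounts of 0 and 10 moved none of the 4 beyond its counting interval. A fold of 16 left 3 of 4 genes, Car3 being the exception. The median of the carbonic anhydrase list moved to 2.79 with values of at least 100, as fewer genes entered. edgeR's quasi-likelihood test with Benjamini-Hochberg adjustment gave adjusted p from 7.95e-07 to 3.47e-06 for the 4 genes, and it called 4197 of 4197 listed genes, 56.4% of them lower; it compares these 3 libraries, which also chose the genes. No paired analysis was possible because the labels give 1 sample per group and no shared replicate numbers.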
